A study of Mus musculus with 24 samples.

Results

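*Arntl*, *Clock* and *Npas2* encode the transcription factors that form the positive limb of the mouse circadian clock. They were taken by gene name from the per-library tables of liver poly(A) RNA, and are 3 of the 54733 genes listed. All 3 reached a mean of at least 1 FPKM over the 24 libraries, and 11244 genes in all did so and were tested. FPKM is the number of fragments scaled to transcript length and to the size of the library, so it is corrected for transcript length and the levels of different genes may be set side by side. Read counts cannot be recovered from these tables, so sequencing depth is unknown and neither counting intervals nor detection floors were computed.

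Livers came from adult male C57BL/6 mice, either wild type (WT) or homozygous for the ΔRRE allele, written delta-RRE in the sample labels. In the ΔRRE line both RREs in the 5′-UTR of *Bmal1*, the common name of *Arntl*, had been removed from both alleles with CRISPR-Cas9. The deletion is in the germline and is therefore carried by every cell of the liver, and the labels do not say which of the established mutant lines was sampled. Mice were in constant darkness, and livers were taken at projected circadian times CT2, CT6, CT10, CT14, CT18 and CT22, with 2 libraries per genotype and time. Exact ages are not in the sample labels, which also do not say that the 2 libraries of a group are separate animals, so p-values measure the spread between these libraries only. In whole liver, fewer cells expressing a gene and less RNA per cell cannot be told apart.

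The protein BMAL1 binds DNA only as a dimer, with either CLOCK or NPAS2 as its partner, and the dimer activates genes that carry an E-box, a short palindromic element. Among its targets are the *Per* and *Cry* genes, whose proteins shut the dimer off, and the genes of the REV-ERB receptors. REV-ERB repressors and ROR activators compete for the RRE, an element with an AT-rich start followed by a nuclear receptor half-site, and through it they drive the daily rise and fall of *Bmal1*. CLOCK is the main partner in most tissues, and NPAS2 can take its place.

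The RREs are shown because their loss is the only designed difference between the genotypes. Both lie 3′ of the annotated start of *Arntl* (ENSMUSG00000055116, chr7:113207465-113314126, plus strand, mm10) and inside exon 1, in the 5′-UTR, by GENCODE M21. Of the 6 annotated transcripts, 1 has the upstream element in that exon and 2 have the downstream one. Both elements are given 5′ to 3′ on the plus strand from the RefSeq promoter windows (GRCm38.p6), with the 11 bases of each element in capitals.
Upstream RRE, chr7:113207491-113207520: gattggtcggAAAGTAGGTTAgtggtgcga
Downstream RRE, chr7:113207527-113207556: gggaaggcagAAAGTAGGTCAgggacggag
The elements begin 36 bases apart and differ by 1 substitution, T10C, counted from 1 at the first capital with the base of the upstream element first. The downstream element matches the full RRE consensus and the upstream one does not. A search of both strands of 32851 promoter windows of 300 bases, which cover mostly the bases before each annotated start, found the full consensus in 0.384% of them. It was in 1 of the 2 *Arntl* windows, and in none of the 3 *Clock* windows or in the 1 *Npas2* window.

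The letters GTAGGTNA, common to both *Arntl* elements, were in 2.14% of all windows and in both *Arntl* windows, but in none of *Clock* or *Npas2*. The half-site AGGTCA, which the full consensus includes, was in 16.3% of all windows and in 1 of the 3 *Clock* windows, at position -119 from that start and on the opposite strand. That site is shown, because it was the only match among the partner genes, in the orientation of *Clock* with the half-site in capitals.
Clock half-site, chr5:76303607-76303631, minus strand: ctttggcctcTGACCTgacagatga
The palindromic E-box CACGTG was in 7.15% of all windows and in none of the 6 windows of the 3 genes. A match or its absence describes these windows only. *Clock* (ENSMUSG00000029238) spans chr5:76209868-76304792 on the minus strand and *Npas2* (ENSMUSG00000026077) spans chr1:39193731-39363236 on the plus strand. Whether fragments were counted by strand is not stated. The antisense gene *Gm45355*, whose exon overlaps an *Arntl* exon, was listed at 0 in all 24 libraries.

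In the liver of WT mice, *Arntl* was high around subjective dawn and close to absent before subjective dusk. It was listed at 12.6 and 13.2 FPKM at CT2, at 2.42 and 2.86 at CT6, and at 0.195 and 0.0919 at CT10. It then climbed through 2.21 and 1.15 FPKM at CT14 and 5.96 and 5.76 at CT18 to 10.3 and 11.2 at CT22. The group mean at CT2 (12.9 ± 0.406 FPKM, SD, n = 2) was 90.2 times that at CT10 (0.143 ± 0.0726).

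In the ΔRRE liver the same gene stayed within a narrow band at all hours. It was listed at 3.58 and 3.16 FPKM at CT2, at 3.01 and 4.21 at CT6, and at 2.5 and 2.1 at CT10. The later values were 2.59 and 2.49 FPKM at CT14, 2.70 and 3.24 at CT18, and 3.83 and 3.29 at CT22. The highest group mean (3.61 ± 0.850 FPKM at CT6) was 1.57 times the lowest (2.30 ± 0.284 at CT10), and every ΔRRE library lay inside the range of the WT libraries.

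**Figure D1:**
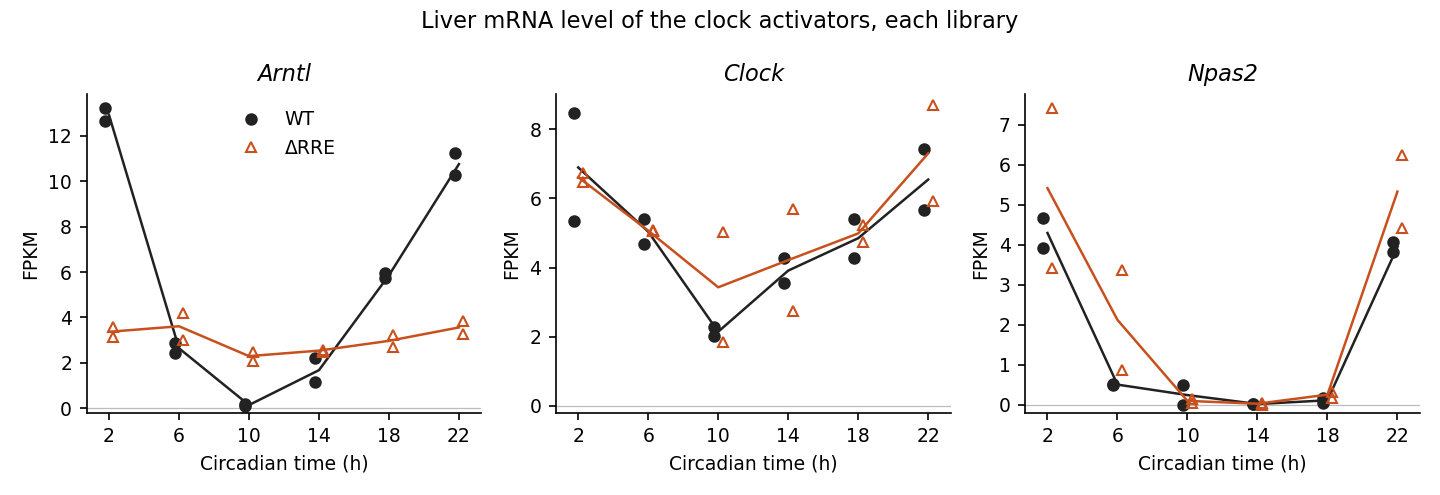
FPKM (vertical axis, from 0) of *Arntl*, *Clock* and *Npas2* against circadian time in hours. Filled circles are WT libraries, open triangles ΔRRE libraries, and lines join the means of 2 libraries. *Arntl* spans 0.0919 to 13.2 FPKM in WT and 2.1 to 4.21 in ΔRRE, whereas the ranges of *Clock* and *Npas2* in the genotypes lie over each other.

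The libraries of the genotypes did not overlap for *Arntl* at any of the 6 time points, with ΔRRE below WT at CT2, CT18 and CT22 and above it at CT6, CT10 and CT14. Of all genes tested, 0.0978% had no overlap at all 6 times. Set in order, the 12 group means of *Arntl* began with WT CT2 and WT CT22 and ended with WT CT14 and WT CT10. All 6 ΔRRE groups, and WT CT6 with them, lay between WT CT18 and WT CT14. Neighbours among these 7 differed by less than the pooled SD of replicates (0.26 on the log2 scale), so the order of neighbours cannot be read. The ends of this run, ΔRRE CT6 at 1.87 and ΔRRE CT10 at 1.26, stood further apart than that SD. Only 4 of the 11 steps between neighbours were larger than that SD.

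At each time point ΔRRE was compared with WT in a limma model with 12 groups on log2(FPKM + 0.1), with Benjamini-Hochberg adjustment over all genes tested and a call at an adjusted p under 0.05. All fold changes are on that log2 scale, which understates the change of low values such as *Arntl* at CT10 in WT. At CT10, *Arntl* was higher in ΔRRE by 3.33 ± 0.27 (SE, adjusted p = 1.22e-05). This was the smallest p of all genes, and 0.0178% of those tested were called. At CT2, *Arntl* was lower in ΔRRE by a log2 difference of -1.91 ± 0.27 (adjusted p = 0.0238), again the smallest p, with 0.00889% of genes called. The CT2 call was lost without any 1 library of WT CT2, CT18 or CT22 or of ΔRRE CT2 (adjusted p between 0.0523 and 0.207 in these 8 fits), whereas the CT10 call survived every removal (at most 0.000841).

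The other 4 time points gave *Arntl* values that did not pass. The log2 difference at CT22 was -1.57 (adjusted p = 0.121), the second smallest p of all genes at a time when 0% were called and 4.66% had an unadjusted p under 0.05. With a pseudocount of 1 FPKM in place of 0.1 it passed (adjusted p = 0.00981), and with 0.01 FPKM it did not (adjusted p = 0.370). Of 24 fits lacking 1 library, 2 passed, those without either WT library of CT14. The value ran from -1.68 to -1.46 over these 24 fits. At CT18 the difference was -0.96 (unadjusted p = 0.00227, adjusted p = 1), where 0.00889% of genes were called. At CT6 it was 0.42 and at CT14 it was 0.64, with 0% (3.28% at an unadjusted p under 0.05) and 0.0267% of genes called. With 1 library left out the CT6 value ran from 0.19 (without the second ΔRRE library of CT6) to 0.66 (without the first), and the CT14 value from 0.19 (without the second WT library of CT14) to 1.08 (without the first).

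**Figure D2:**
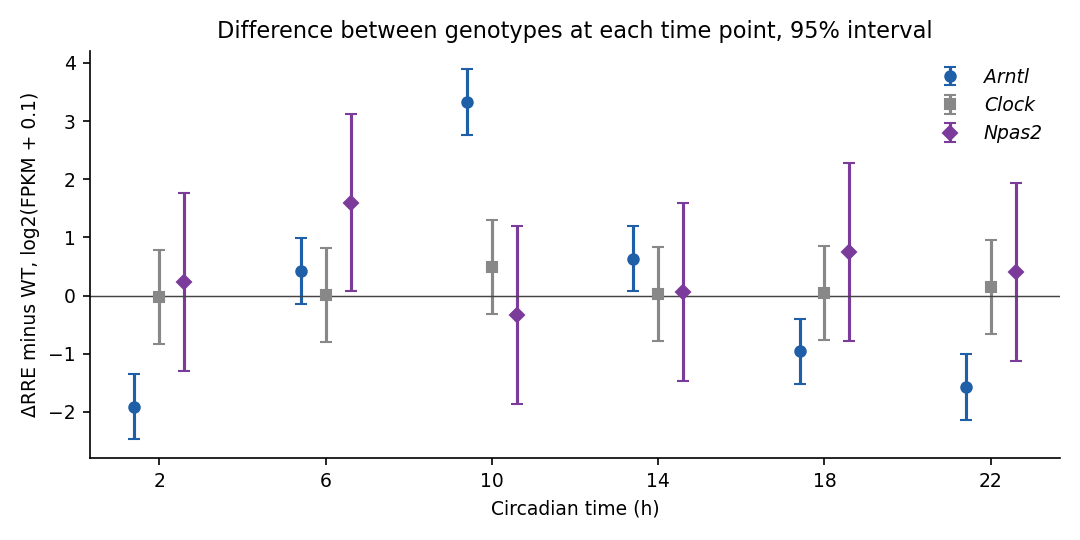
Difference between ΔRRE and WT on the scale of log2(FPKM + 0.1) (vertical axis) at each circadian time in hours, with 95% intervals from limma that are not adjusted for the number of genes. The *Arntl* points change sign, from -1.91 at CT2 to 3.33 at CT10 and -1.57 at CT22, and all 6 intervals of *Clock* hold 0.

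The differences of *Arntl* had both signs, and their mean over the day depended on the pseudocount. The mean log2 difference of *Arntl* was -0.01, with a 95% interval of -0.84 to 0.82. The model of the mean level let no genotype difference change with time. The spread behind this interval therefore includes the change of sign over the day, beside the spread between replicates. The mean difference was -0.26 with a pseudocount of 1 FPKM and 0.10 with 0.01 FPKM, and did not pass with either. No gene was called for its mean level (0%, with 8.91% at an unadjusted p under 0.05). In FPKM, which weights the high hours more, the mean over 12 libraries was 5.67 in WT and 3.06 in ΔRRE.

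A wave of 24 h was fitted to each gene in each genotype, and its amplitude is the distance on the log2 scale from the mean of the wave to its crest. In WT, 10.3% of genes were called rhythmic (limma F-test, adjusted p under 0.05), and all 3 activators were among them. *Arntl* had an amplitude of 2.57 ± 0.31 (SE, adjusted p = 0.00102) with its crest at CT22.8, the 12th largest amplitude of all genes. *Npas2* had 2.76 ± 0.36 (adjusted p = 0.00172) with its crest at CT0.99, the 8th largest. The *Npas2* amplitude depends on the pseudocount, and the ranks are given for 0.1 FPKM only. With 1 FPKM it was 1.28, below the 1.73 of *Arntl*. With 0.01 FPKM it was larger than with 0.1 FPKM and again above that of *Arntl*. *Clock* had 0.68 ± 0.13 (adjusted p = 0.0166) with its crest at CT23.4, ranked 577.

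In ΔRRE, 4.57% of genes were called and *Npas2* was the only activator among them. Its amplitude was 3.07 ± 0.27 (adjusted p = 0.000431), the 5th largest of all genes, with its crest at CT1.13. *Arntl* had an amplitude of 0.29 ± 0.09 (adjusted p = 0.156), rank 3108. *Clock* had 0.56 ± 0.16 (adjusted p = 0.124), rank 884, with its crest at CT23.5. Taken singly, in exact permutation tests over all ways of assigning the 12 libraries to 6 pairs, the amplitudes of *Arntl* and *Clock* in ΔRRE gave p = 0.0225 and p = 0.0133, and that of *Npas2* gave p = 7.38e-05.

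**Figure D3:**
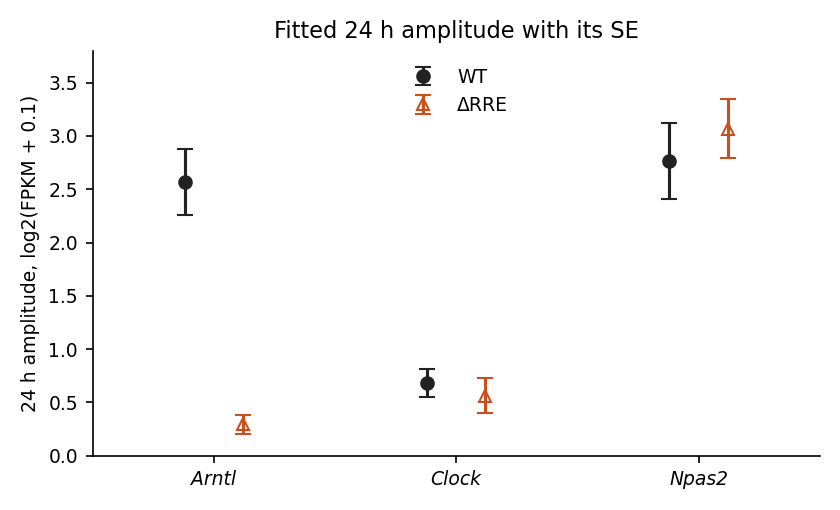
Amplitude of the fitted 24 h wave on the scale of log2(FPKM + 0.1) (vertical axis) for each gene, with its SE, in WT (filled circles) and ΔRRE (open triangles). *Arntl* falls from 2.57 to 0.29, while the error bars of *Clock* overlap, as do those of *Npas2*.

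The difference between the waves was itself tested. Of all genes, 0.00889% were called, which was *Arntl* alone, whose amplitude fell by 2.27 in ΔRRE (limma, adjusted p = 0.0463). In the exact permutation test over all ways of dividing the 4 libraries of each time point into pairs, its waves differed with p = 4.29e-05, the smallest such a test can give. The limma call lay close to the threshold. The call was also made with a pseudocount of 1 FPKM and after rescaling of libraries, each time with a smaller adjusted p. It was not made with 0.01 FPKM, without the filter on mean FPKM, with a prior without trend or with a replicate block. Of 24 fits, each lacking 1 library, 5 kept it, namely those without the second WT library of CT6 or CT10, the first of CT14 or either of CT22 (adjusted p between 0.00284 and 0.198 over all 24).

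The difference in wave did not pass for either partner. For *Clock* the amplitude in ΔRRE minus that in WT was -0.12 (limma adjusted p = 0.99993, exact permutation p = 0.906), and the fitted crests were 0.134 h apart. For *Npas2* it was 0.31 (limma adjusted p = 0.99993, exact permutation p = 0.800), and the crests were 0.144 h apart. This amplitude difference was 0.00012 without the first WT library of CT10, and between that and 0.51 over all fits lacking 1 library. A p above the threshold does not show that the waves were the same.

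*Clock*, the main partner gene, was listed at 1.83 FPKM or more in every library. In WT it was listed at 5.33 and 8.45 FPKM at CT2, at 5.40 and 4.67 at CT6, and at 2.28 and 2.01 at CT10. It was listed at 3.54 and 4.28 FPKM at CT14, 4.28 and 5.42 at CT18, and 5.67 and 7.42 at CT22. The highest group mean, at CT2, was 3.21 times the lowest, at CT10.

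In ΔRRE, *Clock* was listed at 6.48 and 6.75 FPKM at CT2, at 5.08 and 5.06 at CT6, and at 1.83 and 5.02 at CT10. It was listed at 2.74 and 5.69 FPKM at CT14, 4.75 and 5.22 at CT18, and 5.91 and 8.69 at CT22. The highest group mean was 2.13 times the lowest, again at CT10. At CT10 and CT14 the 2 ΔRRE libraries stood far apart, the second of each pair being the higher, and at CT10 the first lay below both WT libraries.

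The genotypes overlapped for *Clock* at all 6 time points, which 11% of genes tested did. Its log2 differences ran from -0.02 at CT2 to 0.49 at CT10, and none passed the test. Without the second ΔRRE library of CT10 the difference there was -0.21. Over the day *Clock* was higher in ΔRRE by 0.12 on the log2 scale, with a 95% interval of -0.18 to 0.41 (exact permutation p = 0.477). Just 1 of the 11 steps between neighbouring group means, that from ΔRRE CT10 down to WT CT10, exceeded the pooled SD of replicates (0.42).

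*Npas2*, the alternative partner gene, was close to silent for much of the day in both genotypes. In WT it was listed at 4.68 and 3.91 FPKM at CT2 and at 4.07 and 3.82 at CT22. It was listed at 0.51 and 0.50 FPKM at CT6, 0.0176 and 0.0222 at CT14, and 0.169 and 0.0577 at CT18. At CT10 the libraries disagreed, with 0.486 FPKM in the first and a listing at 0 in the second.

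In ΔRRE, *Npas2* was listed at 3.42 and 7.41 FPKM at CT2, at 4.41 and 6.24 at CT22, and at 0.865 and 3.38 at CT6. It was listed at 0.149 and 0.0484 FPKM at CT10, 0.0553 and 0 at CT14, and 0.327 and 0.182 at CT18. The high hours CT22 and CT2 and the low hours CT10 to CT18 were therefore separated in each genotype with no overlap, and CT6 lay between them. Neighbours within the 4 highest groups, and within the 6 lowest, differed by less than the pooled SD of replicates (0.75 on the log2 scale).

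At CT6, CT18 and CT22 both ΔRRE libraries of *Npas2* lay above both WT libraries. As many as 10.5% of genes tested had ΔRRE above WT without overlap at 3 or more times, so the count is near what is common among genes. The largest difference, 1.60 on the log2 scale at CT6, had an unadjusted p of 0.0415 and an adjusted p of 1 in limma. It was 0.67 without the second ΔRRE library of CT6. The mean difference over the day was 0.45, with a 95% interval of -0.15 to 1.05 (exact permutation p = 0.151).

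Because the proteins act in pairs, the ratios between the mRNAs were followed by library, with 0.1 FPKM added to each gene. There were 16 exact permutation tests on 4 ratios, adjusted together, and the ratios share members and so are not independent. They compare mRNA levels only.

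In WT, the ratio of *Arntl* to *Clock* crossed 1 over the day. It was 2.34 and 1.56 at CT2, 0.459 and 0.621 at CT6, and 0.124 and 0.091 at CT10. It was 0.635 and 0.284 at CT14, 1.38 and 1.06 at CT18, and 1.80 and 1.51 at CT22. *Arntl* thus exceeded *Clock* in 6 of 12 WT libraries, namely all those of CT18, CT22 and CT2.

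In ΔRRE, the ratio was above 1 in 1 of 12 libraries, the first of CT10 at 1.34, where *Clock* was at its lowest. The other 11 libraries lay between 0.386 and 0.945. Geometric means by time ran from 0.502 at CT22 to 0.759 at CT10, against 0.106 at CT10 to 1.91 at CT2 in WT. The ratio in ΔRRE was 7.15 times that in WT at CT10 and 0.27 times that in WT at CT2. *Arntl* was listed at 0.195 and 0.0919 FPKM in the WT libraries of CT10, so their ratios and the factor of 7.15 depend on the pseudocount.

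The 24 h amplitude of this ratio was 1.90 on the log2 scale in WT (exact permutation, adjusted p = 0.00109) with its crest at CT22.6, and 0.30 in ΔRRE (adjusted p = 0.518). Without the second ΔRRE library of CT10 the ΔRRE amplitude was 0.57 and passed (adjusted p = 0.0320). The waves of the genotypes differed by a vector of length 2.19 (adjusted p = 0.00360). The mean ratio over the day did not pass, with a log2 difference of -0.12 (adjusted p = 0.775).

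**Figure D4:**
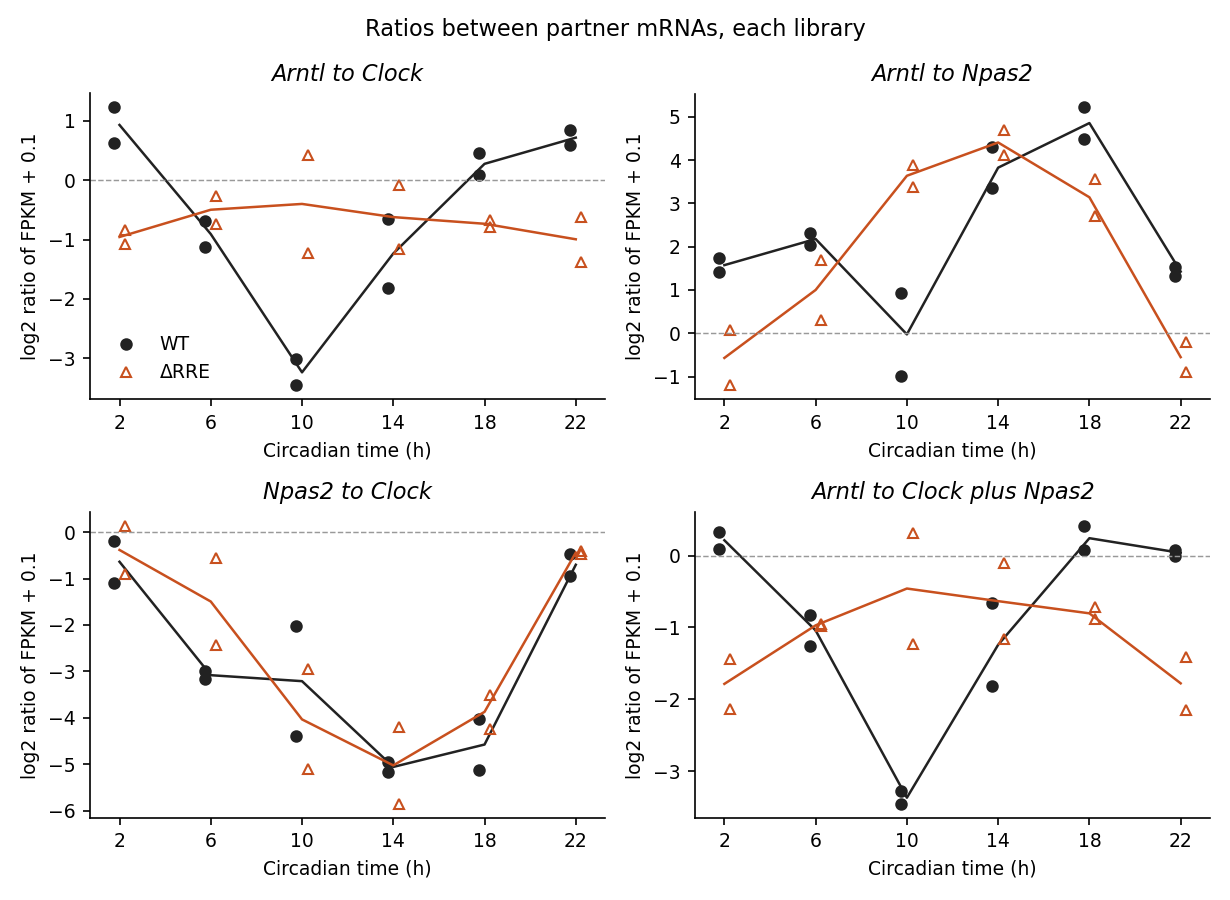
Log2 ratio of FPKM + 0.1 (vertical axis) against circadian time in hours for 4 pairs of mRNA levels, in WT (filled circles) and ΔRRE (open triangles), with lines through the means of 2 libraries and a dashed line at equal levels. The mean of *Arntl* to *Clock* swings from 0.93 at CT2 to -3.24 at CT10 in WT and lies between -0.99 and -0.40 in ΔRRE, where single libraries range from -1.37 to 0.43, while *Npas2* to *Clock* follows a like course in both.

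For *Arntl* to *Npas2* the wave passed the test in ΔRRE and not in WT. In WT, where both genes cycle with crests about CT23 and CT1, the ratio ranged from 0.503 to 37.1 over 12 libraries. Its amplitude was 1.53 (exact permutation, adjusted p = 0.153). In ΔRRE, where *Npas2* was called rhythmic and *Arntl* was not, the ratio ranged from 0.434 to 25.9 and its amplitude was 2.78 (adjusted p = 0.00109), with the crest at CT13.2. The highest WT ratio was in the second library of CT18, where *Npas2* was listed at 0.0577 FPKM. The highest ΔRRE ratio was in the second library of CT14, where it was listed at 0. Both of these ratios, and the amplitudes with them, depend on the pseudocount.

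The waves of this ratio differed between genotypes by 2.5 (exact permutation, adjusted p = 0.00666). *Npas2* exceeded *Arntl* in 1 of 12 WT libraries and in 3 of 12 ΔRRE libraries. The WT library was the first of CT10, at a ratio of 0.503. The ΔRRE libraries were the second of CT2 at 0.434 and both of CT22 at 0.870 and 0.535. At CT22 the geometric mean was 2.68 in WT and 0.682 in ΔRRE, and at CT10 it was 0.982 and 12.4. The second WT library of CT10, where *Npas2* is listed at 0, has a ratio of 1.92 that depends on the pseudocount.

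The ratio of the partners to each other kept its daily swing. *Npas2* was below *Clock* in all 12 WT libraries, with ratios between 0.0279 and 0.880 after the added 0.1 FPKM. The lowest was in the second library of CT14, where *Npas2* was listed at 0.0222 FPKM, and it depends on the pseudocount. In ΔRRE it was below *Clock* in 11 of 12, the exception being the second library of CT2 at 1.10. Amplitudes were 2.16 in WT (exact permutation, adjusted p = 0.0173) and 2.57 in ΔRRE (adjusted p = 0.00378), both with the crest at CT1.48. The waves differed by 0.41 (adjusted p = 0.775). With a pseudocount of 1 FPKM the WT amplitude was 0.77 and no longer passed (adjusted p = 0.0915), nor did it without either WT library of CT6 or the second of CT10 (highest adjusted p = 0.112).

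Set against both partners together, *Arntl* to the sum of *Clock* and *Npas2* had its crest at CT22.1 in WT, with an amplitude of 1.59 (exact permutation, adjusted p = 0.00227). In ΔRRE the amplitude was 0.71 with the crest at CT12.1 (adjusted p = 0.0417). The waves differed by 2.24 (adjusted p = 0.00446). At CT2 the geometric mean was 1.16 in WT and 0.290 in ΔRRE, and at CT10 it was 0.0967 and 0.728. The WT value at CT10 depends on the pseudocount. The ΔRRE wave was no longer called without any 1 of 8 libraries, those of CT6 and CT18, the first of CT10 or CT14 and the second of CT2 or CT22 (highest adjusted p = 0.328), and the WT wave was called in all 12 such fits.

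Across the 12 WT libraries, Pearson's r on the log2 scale was 0.916 between *Arntl* and *Clock*, 0.666 between *Arntl* and *Npas2*, and 0.652 between *Clock* and *Npas2*. Across the 12 ΔRRE libraries the same values were 0.448, 0.801 and 0.594. The points of each r share the time of day, the library and the 2 libraries per time, and r is given as a description.

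Of all genes tested, the 5 most like *Arntl* across the WT libraries were *Lgalsl*, *Slc30a10* (a manganese exporter), *Tjp3* (a tight junction protein), *Tars* (threonyl-tRNA synthetase) and *Chka* (choline kinase), with r from 0.964 to 0.974. Across the ΔRRE libraries their r with *Arntl* was between 0.653 and 0.871. *Chka* had amplitudes of 1.68 in WT and 1.40 in ΔRRE, and *Lgalsl* had 1.51 and 1.08. The 3 most like *Arntl* in ΔRRE were *Neurl3*, *Gldc* (glycine decarboxylase) and *Gm13889*, with r from 0.901 to 0.924.

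Those most like *Clock* in WT were *Rnf144b*, *Dnmt3b* (a DNA methyltransferase), *Cgn* (cingulin of tight junctions), *Ubqln1* and *Caprin1*, with r from 0.925 to 0.960. Their r with it in ΔRRE was between 0.742 and 0.815. The 3 most like it in ΔRRE were *Slco1a1* (an organic anion transporter), *Abcd3* (a peroxisomal transporter) and *Galnt1*, with r from 0.923 to 0.945. The r of these 3 with *Clock* in WT was between -0.06 and 0.40.

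Those most like *Npas2* in WT were *Rnf125*, *Zfp652*, *Stat5b* (a transcription factor of growth hormone signalling), *Trappc8* and *Ceacam1*, with r from 0.936 to 0.957. They had r between 0.794 and 0.927 with it in ΔRRE. The 3 most like it in ΔRRE were *Rnf144a*, *Clpx* (a mitochondrial protease subunit) and *Loxl4* (a lysyl oxidase), with r from 0.950 to 0.962, and r from 0.885 to 0.919 in WT.

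Among other genes of the pathway, the relatives and coactivators of the bHLH-PAS family gave 7 of 16 genes that were tested, and 0 of them were called rhythmic by limma in either genotype, where 10.3% of all genes were in WT and 4.57% in ΔRRE. At an unadjusted p under 0.05 there were 0 in WT and 1 in ΔRRE, against 27.6% and 22.6% of all genes. *Arntl2*, the paralog of *Arntl*, was among the 9 with a mean below 1 FPKM. The median amplitude of the 7 was 0.10 in WT and 0.13 in ΔRRE, against 0.20 and 0.19 over all genes. The 9 enzymes that modify BMAL1 were all tested, and 0 were called rhythmic by limma, against the same 10.3% and 4.57% of all genes. At an unadjusted p under 0.05 there were again 0 in WT and 1 in ΔRRE, against 27.6% and 22.6%. Kinase subunit *Csnk2b* had the smallest unadjusted p in WT (0.0502), with an amplitude of 0.15.

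The repressors of the dimer gave 7 of 8 tested genes, of which 7 were rhythmic in WT and 5 in ΔRRE, against 10.3% and 4.57% of all genes. *Cry2*, with amplitudes of 0.32 and 0.33, and *Bhlhe40*, with 0.98 and 0.85, were those not called in ΔRRE (adjusted p = 0.148 and 0.0643, limma). The RRE-binding regulators *Nr1d1*, *Nr1d2* and *Rora* and the RRE-controlled gene *Nfil3* made a list of 4. Of these, 3 were rhythmic in each genotype, all but *Rora*. Of the 3 E-box output factors, 2 were rhythmic in each, beside the same shares of all genes. The REV-ERB gene *Nr1d1* had amplitudes of 3.02 and 2.84. For the difference of waves and for the mean level, 0 of the 30 tested genes of these lists were called. At an unadjusted p under 0.05 that count was 0 for the waves and 5 for the level, where 2.84% and 8.91% of all genes had one. Of these 5, *Per2* was lower in ΔRRE at -0.50 (limma adjusted p = 0.395). The others, *Per1* (0.40), *Nfil3* (0.34), *Csnk2a2* (0.19) and *Rora* (0.16), were higher. No gene of these lists was called at a time point either. At an unadjusted p under 0.05 there were 7 of the 30 at CT6, against 3.28% of all genes, with 1 at CT2, 2 at CT22 and 0 at the other times. At CT6 *Cry1* had a log2 difference of 1.19 (limma unadjusted p = 0.000409) and *Ciart* of -2.06 (unadjusted p = 0.0034), each with an adjusted p of 1.

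Hepatocyte markers summed to between 38070 and 52825 FPKM in the WT libraries and between 35651 and 48698 in ΔRRE. The summed markers of Kupffer, endothelial, stellate and bile duct cells stayed at or below 71.4 FPKM in each library, and none of the 23 markers was at 0 in all libraries. In the second ΔRRE libraries of CT10 and CT14, where *Clock* stood high, the hepatocyte sum was 37316 and 48293 FPKM, against 39780 and 39214 in the first. The Kupffer sum was 22.2 and 29.1 against 29.6 and 36.4, the endothelial sum 18.2 and 18.0 against 19.3 and 20.4, the stellate sum 30.0 and 30.3 against 31.0 and 62.4, and the bile duct sum 3.74 and 4.47 against 2.31 and 3.8. The part of these markers in the *Clock* values was not tested. Libraries summed to 554170 to 624746 FPKM, and r between the 2 libraries of a group over all genes was lowest for ΔRRE CT14 (0.955).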

How the data were processed

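Liver poly(A) RNA of WT and ΔRRE mice was made into directional libraries and read in pairs, 2 libraries per genotype and time point. The deposited per-library tables hold FPKM values that the authors computed for each gene. The submitters' processing notes name Trimmomatic 0.39, HISAT2 2.1.0, StringTie 1.3.5 and the mm10 build. FPKM keeps no read counts, so no count test was used and depth is unknown. A table of the whole series was not used.

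The members and the gene lists were chosen with earlier results of these data known. Values were analysed as log2(FPKM + 0.1) with limma 3.58.1 (R 4.3.3), without rescaling of libraries, for genes whose mean over all libraries reached 1 FPKM. A 24 h cosine and sine were fitted per genotype, and the difference of waves, the mean level with time as a factor, and each time point were fitted over all 24 libraries. P-values were adjusted by Benjamini-Hochberg over all 11244 genes, and a call is an adjusted p under 0.05. Exact two-sided permutation tests on members and ratios used numpy 2.4.6 (Python 3.11.15). Scripts were tested on simulated data. Genes named beside the members are the 5 tested genes with the highest Pearson's r across WT libraries, the 3 highest across ΔRRE libraries, and up to 4 of each pathway list by smallest unadjusted p, with *Arntl2*, *Nr1d1*, *Cry2* and *Bhlhe40* named by their role or their lost call. Alternatives were other pseudocounts, filters, rescaling, prior, a replicate block and leaving out each library.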

Additional observations from a re-analysis of the deposited data

Results flagged for a closer look

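The 24 h wave of *Arntl* differed between genotypes by the test of the difference itself, with an amplitude in ΔRRE minus that in WT of -2.27 on the log2 scale (limma, adjusted p = 0.0463). The waves of 3 ratios also differed between genotypes in exact permutation tests of the difference, by a vector of length 2.19 for *Arntl* to *Clock*, 2.5 for *Arntl* to *Npas2* and 2.24 for *Arntl* to the sum of *Clock* and *Npas2*. All 3 ratios hold *Arntl*, and that of *Npas2* to *Clock*, which does not, gave 0.41 (adjusted p = 0.775). With 2 libraries per group, no group was large enough to be searched for single libraries that stand apart.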

How the results depend on the processing

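Of 1178 values of the members and their ratios recomputed under alternatives, 1094 kept their direction and their side of the threshold. Many of the fitted values could not move, because leaving out a library of 1 time point does not change the difference at another. The count is therefore no measure of stability. The cause of each change below was not tested. *Npas2* was called rhythmic in both genotypes, and *Arntl* in WT, under every alternative that kept the gene. The amplitude difference of *Arntl* was not called with a pseudocount of 0.01 FPKM (-2.52, adjusted p = 0.221), and it stayed at -2.27 but uncalled with no filter (0.135), with a prior without trend (0.0731) and with a replicate block (0.0771). It was called with a pseudocount of 1 FPKM and after rescaling, each time with a smaller adjusted p than in the main fit. With each library left out it was -2.47 to -1.95. The rhythm of *Clock* in WT (0.68) was lost with no filter (adjusted p = 0.0746). *Npas2* to *Clock* in WT fell to 0.77 with a pseudocount of 1 FPKM. A mean of at least 5 FPKM leaves only *Clock*, so *Arntl* and *Npas2* have no value there, and ratios without a pseudocount could not be computed with *Npas2* where it is listed at 0.

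Replicate numbers did not pair the libraries. Deviations of same-numbered libraries correlated at -0.12 to 0.21 over the 6 time points, and the replicate block changed no other call of a member or ratio.

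None of the values whose sign turned was called. The mean level of *Arntl* was 0.10 with a pseudocount of 0.01 FPKM, where *Npas2* was 0.45 at CT10 and -0.22 at CT14. Rescaling put *Clock* at -0.0014 at CT6, -0.028 at CT14 and -0.056 at CT18. With each library left out, the level of *Arntl* ran from -0.24 to 0.11, the amplitude difference of *Clock* from -0.29 to 0.0024 and the level of *Arntl* to *Clock* from -0.26 to 0.013. The *Clock* difference ran from -0.35 to 0.31 at CT2, -0.091 to 0.11 at CT6, -0.21 to 1.19 at CT10, -0.49 to 0.53 at CT14, -0.12 to 0.21 at CT18 and -0.13 to 0.42 at CT22, and that of *Npas2* from -0.31 to 0.78 at CT2, -1.61 to 0.94 at CT10 and -0.26 to 0.37 at CT14. Amplitudes that passed or lost the threshold ran from 1.94 to 2.42 for *Npas2* to *Clock* in WT, 0.034 to 0.57 for *Arntl* to *Clock* in ΔRRE and 0.51 to 0.94 for *Arntl* to the sum in ΔRRE.

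Over all genes, 1157 were rhythmic in WT, 519 with no filter, 361 with time as a factor and 740 to 1019 with a library left out. In ΔRRE 514 were, 197 with no filter, 957 in a fit of all 24 libraries and 298 to 554 with a library left out. The 1 called difference of waves became 0 with a pseudocount of 0.01 FPKM, no filter, a mean of at least 5 FPKM, no trend or the block, with 176 to 954 genes at an unadjusted p under 0.05, and 0 to 1 with a library left out, as did the 0 called levels. Without a filter, time points called 20 genes at CT2, 15 at CT6, 10 at CT10, 7 at CT14, 8 at CT18 and 14 at CT22. A mean of at least 5 FPKM left 0 at CT2, CT10 and CT18, a pseudocount of 1 gave 1 at CT10, 5 at CT14 and 2 at CT22, one of 0.01 gave 0 at CT2, and rescaling gave 1 at CT10. With a library left out the counts were 0 to 3 at CT2 and CT6, 2 to 5 at CT10, 2 to 20 at CT14, 1 to 4 at CT18 and 0 to 2 at CT22. The unknown depth limits what can be said of *Npas2* below 0.1 FPKM.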
